A study of Rattus norvegicus with 2 samples.

Results

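The genes described here are 10 regulators of gene silencing that have been tied to the timing of puberty: *Eed*, *Ezh2*, *Suz12*, *Cbx7*, *Yy1*, *Sirt1*, *Dnmt1*, *Dnmt3a*, *Tet2* and *Tet3*. They were taken by gene name from the deposited tables, and all 10 were found among 22777 genes, each under 1 gene ID. RNA-seq was performed on the hypothalamus of female Sprague Dawley rats at 2 stages, prepuberty on postnatal day 25 and puberty, at the first estrus, on postnatal day 35. No treatment or genetic change was involved, and 3 hypothalamuses per stage were used. With a single column for each stage in the tables, a stage counts as 1 library, no gene has a replicate check, and no p-value is given.

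Polycomb proteins keep genes silent through chromatin. Polycomb repressive complex 2 (PRC2) methylates lysine 27 of histone H3, and Polycomb repressive complex 1 (PRC1) binds that mark through its CBX subunits. DNA methyltransferases add methyl groups to cytosine, mostly at CpG sites, and TET enzymes oxidize them, which can lead to their removal. In the arcuate nucleus of the hypothalamus, Polycomb proteins and the deacetylase SIRT1 have been described as repressors of *Kiss1* before puberty. *Kiss1* encodes kisspeptin, the peptide that drives the neurons releasing gonadotropin-releasing hormone.

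The start regions of 3 genes are shown because they carry the CpG sites on which DNA methylation acts, and methylation itself was not measured here. They come from RefSeq on build GRCr8, run 5′ to 3′ on the strand of the gene from 250 bases before the start to 50 after it, and have every CpG in capitals. *Dnmt3a* (chr6:32598352-32598651, plus strand, 21 CpG) had the largest difference between the stages among the 10 genes, *Ezh2* (chr4:77687134-77687433, minus strand, 30 CpG) encodes the catalytic subunit of PRC2, and *Kiss1* (chr13:47326909-47327208, plus strand, 7 CpG) is the gene that this machinery is thought to hold silent.
Dnmt3a: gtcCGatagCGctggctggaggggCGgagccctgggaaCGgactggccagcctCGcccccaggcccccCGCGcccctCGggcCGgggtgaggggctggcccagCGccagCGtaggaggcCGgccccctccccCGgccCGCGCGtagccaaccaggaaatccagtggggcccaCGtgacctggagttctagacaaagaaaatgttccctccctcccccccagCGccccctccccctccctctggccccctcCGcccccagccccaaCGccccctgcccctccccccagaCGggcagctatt
Ezh2: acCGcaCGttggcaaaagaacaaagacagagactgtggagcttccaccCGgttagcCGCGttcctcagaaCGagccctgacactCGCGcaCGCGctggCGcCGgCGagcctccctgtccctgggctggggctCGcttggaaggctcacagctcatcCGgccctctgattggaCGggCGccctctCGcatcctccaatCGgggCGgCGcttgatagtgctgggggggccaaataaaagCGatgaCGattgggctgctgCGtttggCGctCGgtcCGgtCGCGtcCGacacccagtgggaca
Kiss1: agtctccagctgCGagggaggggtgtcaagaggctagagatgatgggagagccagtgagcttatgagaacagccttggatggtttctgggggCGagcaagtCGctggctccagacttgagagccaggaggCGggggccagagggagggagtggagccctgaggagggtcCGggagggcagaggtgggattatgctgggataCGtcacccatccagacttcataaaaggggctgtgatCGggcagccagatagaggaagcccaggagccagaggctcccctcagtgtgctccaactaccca

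Over 33469 start regions of this length in the table, the median was 7 CpG, with quartiles of 3 and 19. Of the 10 genes, 9 had 1 start region each, with 15 CpG in *Eed*, 17 in *Dnmt1*, 21 in *Dnmt3a*, 26 in *Cbx7*, 30 in *Ezh2*, 37 in *Yy1*, 38 in *Suz12*, 39 in *Tet2* and 47 in *Sirt1*. *Tet3* was listed with 4 start regions, holding 3 to 23 CpG. Thus the 9 genes with a single start region all lay above the median, whereas *Kiss1* lay at it. Motifs were searched as letters on both strands. The E2F motif, spelled TTTCGCGC or TTTGGCGC, was found in *Ezh2*, from base 260 of the window, and in *Dnmt1*, from base 276, and it occurs in 0.792% of the start regions in the table. The YY1 motif, spelled GCCATNTT, was found in *Tet2*, from base 261, and it occurs in 6.96% of them. None of these genes held both motifs, but the share of all start regions with both was not counted, so nothing is read from this.

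The values are FPKM, the fragments mapped to a kilobase of transcript set relative to library size, summed over the transcripts of a gene. Low FPKM came in whole steps, and the step gave the number of fragments behind a value. One fragment was worth 0.0482 FPKM times kilobase before puberty and 0.0617 at puberty, which corresponds to libraries of about 20800000 and 16200000 fragments. Of the transcripts with 1 to 10 fragments, 96.5% of 1384 and 96.7% of 1495 came out whole within 0.1 fragment. From these numbers each FPKM was given a 95% exact Poisson interval, and each ratio a 95% Clopper-Pearson interval. A gene summed over transcripts of unequal length was counted with the number of equally weighted fragments that has the same relative error. The intervals cover counting error alone and hold nothing about the spread between rats. Differences are given as the FPKM ratio, pubertal over prepubertal, and as log2 of (pubertal FPKM + 1) over (prepubertal FPKM + 1), called the log2 ratio below, which draws low genes towards 0.

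The hypothalamic peptide genes were present in both libraries, and markers of other cell types and neighbouring tissues were detected as well. All 12 hypothalamic markers were above 0, and their summed FPKM was 2702 before puberty and 4105 at puberty, with 10 of 12 higher, from *Gnrh1* at a log2 ratio of -0.38 to *Oxt* at 0.74. The 4 red blood cell genes found were all higher at puberty, 6406 against 12539 FPKM in sum, from *Alas2* (0.61) to *Hbb* (1.47). Pituitary markers summed to 31.6 and 44.4 FPKM with 5 of 6 higher, from *Lhb* (-0.09) to *Prl* (2.14), and *Prl* and *Fshb* were listed at 0 before puberty. All 5 microglial markers were higher (186 against 229 FPKM, *Csf1r* 0.17 to *Aif1* 0.49). All 5 markers of fibroblasts and meninges were lower (57.9 against 35.6 FPKM, *Col1a1* -1.43 to *Dcn* -0.11), and so were all 5 genes of the thalamic list (437 against 371 FPKM, *Tcf7l2* -0.66 to *Slc17a6* -0.13). Of the thalamic sums, 206 and 188 FPKM came from *Slc17a6*, which is not particular to thalamus. Markers of immature neurons were lower in 3 of 4 (808 against 710 FPKM, *Stmn2* -0.46 to *Sox11* 0.02). Oligodendrocyte (11211 against 12292 FPKM, *Mag* -0.33 to *Mobp* 0.29), astrocyte (854 against 815 FPKM, *Gja1* -0.67 to *Aldh1l1* 0.34), choroid plexus (34.2 against 28.3 FPKM, *Kcnj13* -0.36 to *Folr1* 0.25) and endothelial genes (122 against 131 FPKM, *Pecam1* -0.21 to *Slco1a4* 0.57) went both ways. In whole tissue, fewer cells of a type and less RNA per cell cannot be told apart. The part of these cell types in the results on the 10 genes was not tested.

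All 10 genes were measured at middle levels in both libraries, and they did not move as a group. Their FPKM lay between 4.61 and 20.9 before puberty and between 3.44 and 19.2 at puberty. At puberty 6 of the 10 were lower and 4 higher, while 40.4% of all 22777 genes were lower and 38.9% higher. Among the 14029 genes with FPKM of at least 1 in a library, which include all 10, 51.1% were lower and 48.9% higher, shares that also give the scale for the gene lists. The 10 genes had a median log2 ratio of -0.074, against 0 over all genes. A difference of at least 1.2-fold in FPKM + 1 was reached by 3 of the 10, *Dnmt3a*, *Tet3* and *Ezh2*, all lower, where 11.3% of all genes were lower by that much. In the other direction 0 of the 10 reached it, against 8.63% of all genes. Among the 14029 genes with FPKM of at least 1 the shares were 15.7% and 11.7%. At 1.5-fold 1 of the 10 was left, *Dnmt3a* (1.86% of all genes were lower and 1.43% higher by as much), and at 2-fold 0 of the 10 (0.373% lower and 0.307% higher). With the libraries scaled to equal *Actb*, 1 of the 10 was at least 1.2-fold lower, *Dnmt3a*, and 5 were at least 1.2-fold higher, where 2.82% and 64.8% of the 14029 genes were. This scaling left 10.2% of those genes lower and moved their median to 0.36, and that of all genes by 0.19, and with it the median of the 10 genes and of each list of silencing genes that was negative below turned positive, as did those of the cycling, thalamic, immature-neuron and choroid plexus markers.

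**Figure D1:**
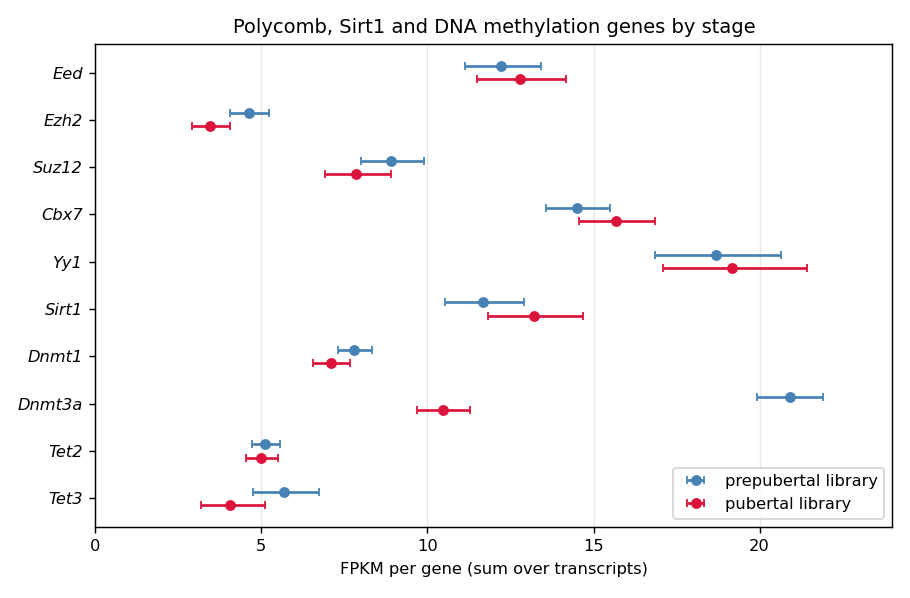
FPKM of the 10 genes (horizontal axis, linear, from 0) in the prepubertal library (blue) and the pubertal library (red), with 95% exact Poisson intervals that cover counting error alone. The points of *Dnmt3a* lie at 20.9 and 10.46 FPKM with intervals far apart, those of *Tet3* at 5.67 and 4.07, and for each gene other than *Dnmt3a* the intervals of the stages overlap.

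*Dnmt3a*, which encodes a DNA methyltransferase that sets new methylation and methylates neuronal DNA after birth, differed most. Before puberty it was listed at 20.9 FPKM (95% interval 19.9 to 21.9), and at puberty at 10.46 FPKM (9.68 to 11.3). The value at puberty was thus 49.95% lower, an FPKM ratio of 0.5005 (0.457 to 0.548) and a log2 ratio of -0.93. The estimate rests on 1700 and 665 fragments of a single transcript of 4173 nt (ENSRNOT00000047210). Of the 14029 genes with FPKM of at least 1, 0.706% had a log2 ratio as low or lower. *Dnmt3a* had the highest FPKM of the 10 genes before puberty, and at puberty it stood below *Yy1*, *Cbx7*, *Sirt1* and *Eed*. Against *Eed* of the same library, which no scaling of libraries can alter, it went from 1.71 (1.54 to 1.90) to 0.818 (0.719 to 0.933). Genes with long mRNAs had lower ratios than the rest, and those of 3443 to 4485 nt had a median log2 ratio of -0.072. Centred on genes of that length, *Dnmt3a* was at -0.86.

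*Dnmt1*, the methyltransferase that copies methylation onto new DNA strands, was nearly level. Its FPKM was 7.79 (7.29 to 8.32) before puberty and 7.09 (6.55 to 7.65) at puberty, a ratio of 0.910 (0.821 to 1.01) and a log2 ratio of -0.12. The interval of the ratio includes 1, and the sign turned when the transcript with the highest FPKM was taken alone, when libraries were scaled to equal *Actb* and when ratios were centred by transcript length. Its transcripts did not share the direction. ENSRNOT00000064932, 5917 nt long, went from 6.68 to 7.09 FPKM, and from 85.7% of the FPKM of the gene to 100%. ENSRNOT00000064304 and ENSRNOT00000067325 were listed at 0.683 and 0.432 FPKM in the prepubertal column but at 0 in the pubertal one. ENSRNOT00000064978 was at 0 in both. These models share most of their sequence, so how fragments were split among them is uncertain, and a 0 can be a failed estimate.

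Within a library the ratio of *Dnmt3a* to *Dnmt1* was 2.68 (2.47 to 2.91) before puberty and 1.48 (1.32 to 1.65) at puberty. The other genes of DNA methylation did not share the difference of *Dnmt3a*. *Dnmt3b*, the closest relative of *Dnmt3a*, was listed at 0.385 and 0.527 FPKM, and *Dnmt3l*, a cofactor without catalytic activity, at 0 in both libraries. *Uhrf1*, which guides DNMT1 to DNA, was at 1.36 and 1.60 FPKM, and *Uhrf2* at 31.2 and 36.7 FPKM. Over these 6 genes 2 were lower and 3 higher, with a median log2 ratio of 0.07, which came to 0.0096 over the 4 with FPKM of at least 1. The 6 readers of methylated DNA went both ways, 3 lower and 3 higher with a median of 0.016 (negative in TPM), between *Mbd3* (31.3 and 26.8 FPKM, log2 ratio -0.22) and *Mbd4* (3.14 and 3.83 FPKM, 0.22).

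The TET genes were lower or level at puberty. *Tet3* was at 5.67 FPKM (4.74 to 6.72) before puberty and at 4.07 FPKM (3.19 to 5.11) at puberty, and the intervals overlap. The FPKM ratio was 0.718 (0.532 to 0.962) and the log2 ratio -0.40, which came to -0.062 with equal *Actb*. The 351 and 194 fragments carry the relative error of 132 and 73 equally weighted ones. Both of its transcripts above 0 were lower, ENSRNOT00000015296 of 5004 nt from 3.29 to 2.32 FPKM and ENSRNOT00000031521 of 802 nt from 2.38 to 1.75 FPKM. The shorter one made up 42.0% and 43.1% of the summed FPKM, although it held only 27 and 16 fragments. The third transcript, ENSRNOT00000031312, was listed at 0 in both libraries.

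*Tet2* was level, with 5.12 FPKM (4.71 to 5.55) before and 5.001 FPKM (4.55 to 5.49) at puberty, a ratio of 0.978 (0.862 to 1.11) and a log2 ratio of -0.027. The sign of this value turned with libraries scaled to equal medians or equal *Actb* and with ratios centred by length. Here too a second model appeared in 1 library alone. ENSRNOT00000046775 went from 5.12 to 4.47 FPKM, and ENSRNOT00000071991, of nearly the same length (5784 against 5763 nt), from 0 to 0.529 FPKM, 10.6% of the gene at puberty. *Tet1*, the third TET gene, was at 5.71 and 4.61 FPKM, a log2 ratio of -0.26. Over the 7 genes of TET oxidation and demethylation 5 were lower and 2 higher, where 51.1% of genes with FPKM of at least 1 were lower (with equal *Actb*, 1 of 7 and 10.2%), with a median log2 ratio of -0.26 that came to -0.14 with ratios centred by length and -0.16 with the top transcript of each gene, and *Gadd45g* (13.0 and 13.3 FPKM, 0.026) stood at the upper end. *Tet2* and *Tet3* fall into the longest of 10 length classes, 4485 nt and longer, whose median log2 ratio was -0.12. Centred on that class, *Tet3* was at -0.27 and *Tet2* at 0.096. *Tet3* was classed by its longest transcript, although its transcript of 802 nt made up 42.0% and 43.1% of the FPKM. Genes of 768 to 1153 nt had a median of 0.078, so the centred value of *Tet3* is rough. Relative to *Tet2* of the same library, *Tet3* was at 1.11 (0.910 to 1.34) before puberty and 0.813 (0.626 to 1.04) at puberty, and the intervals of the stages overlap.

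**Figure D2:**
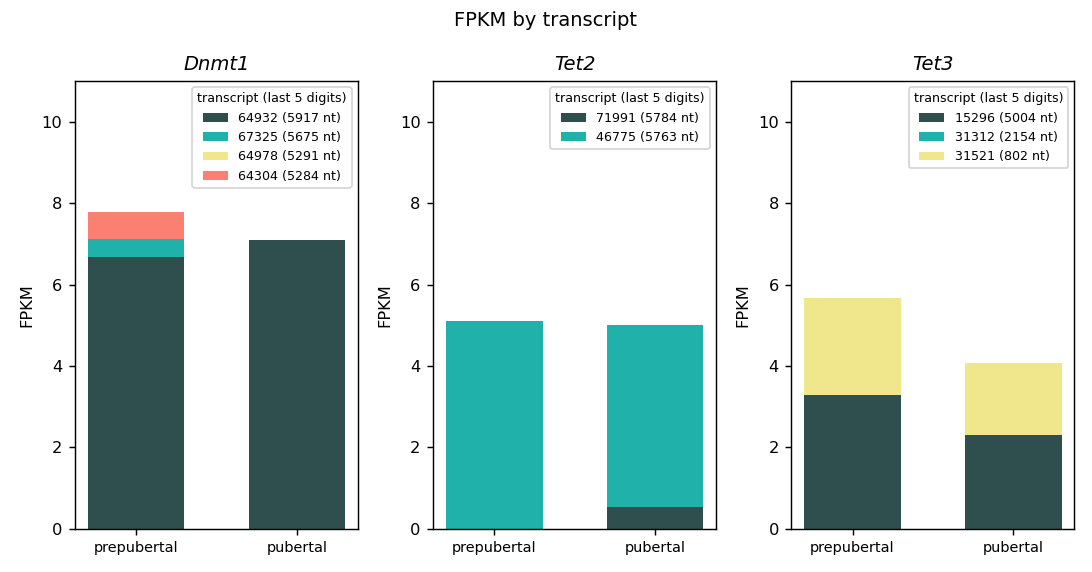
Stacked FPKM (vertical axis, linear, from 0) of the transcripts of *Dnmt1*, *Tet2* and *Tet3* in the prepubertal and pubertal libraries, each colour a transcript with its length. The minor *Dnmt1* transcripts at 0.683 and 0.432 FPKM are seen before puberty alone, the minor *Tet2* transcript at 0.529 FPKM at puberty alone, and both *Tet3* transcripts are smaller at puberty.

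Of the 2 catalytic subunits of PRC2, *Ezh2* was lower and *Ezh1* higher at puberty, and their partners were near level. *Ezh2*, the histone methyltransferase that prevails in dividing cells, was at 4.61 FPKM (4.05 to 5.23) before puberty and at 3.44 FPKM (2.90 to 4.06) at puberty. Its FPKM ratio was 0.747 (0.603 to 0.923) and its log2 ratio -0.34, on 243 and 142 fragments. With equal *Actb* the log2 ratio was -0.013, and *Ezh2* was no longer among the genes at least 1.2-fold lower. *Eed*, the subunit that reads the methyl mark and stimulates the enzyme, was at 12.2 FPKM (11.1 to 13.4) and 12.8 FPKM (11.5 to 14.2), a ratio of 1.05 (0.908 to 1.203). *Suz12*, the scaffold of the complex, was at 8.91 FPKM (8.01 to 9.90) and 7.86 FPKM (6.90 to 8.91), a ratio of 0.882 (0.746 to 1.04). The intervals of both ratios include 1, and *Suz12* turned positive with equal *Actb*. Each had 1 transcript above 0.

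*Ezh1*, the other catalytic subunit, which prevails in resting cells such as neurons, was at 17.1 FPKM (16.2 to 18.0) before and 19.7 FPKM (18.6 to 20.8) at puberty, a log2 ratio of 0.19. *Ezh2* over *Ezh1* within a library was therefore 0.270 (0.235 to 0.310) before puberty and 0.175 (0.146 to 0.208) at puberty, and *Ezh2* over *Eed* 0.377 (0.321 to 0.442) and 0.270 (0.220 to 0.328). The histone-binding subunits *Rbbp4* (94.3 and 93.1 FPKM) and *Rbbp7* (118 and 122 FPKM) serve other complexes as well. The 6 core genes were 3 lower and 3 higher with a median log2 ratio of 0.015, which was negative in TPM and with ratios centred by length, and 4 of the 5 accessory subunits were higher, where 48.9% of genes with FPKM of at least 1 were, with a median of 0.061. That median was 0.11 both with a pseudocount of 0.1 and with the top transcript of each gene, and 0.41 with equal *Actb*, where genes with FPKM of at least 1 had 0.36. The accessory genes ran from *Jarid2* (10.1 and 8.48 FPKM, -0.22), which helps to bring PRC2 to its targets, to *Phf1* (8.70 and 9.66 FPKM, 0.14). The ratio intervals of the 4 higher ones include 1, whereas that of *Jarid2* (0.749 to 0.948) does not. Over the 4 accessory genes with FPKM of at least 1 the median was 0.081.

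Since *Ezh2* and *Dnmt1* are high in dividing cells, markers of cycling cells were set beside them. Of 10 such genes 9 were lower at puberty, with a median log2 ratio of -0.17 (-0.28 with a pseudocount of 0.1). With FPKM of at least 1 it was 7 of 8, where 51.1% of such genes were lower. With ratios centred by length 6 of the 8 with FPKM of at least 1 were lower, and with equal *Actb* 3 of the 10, where 10.2% of genes with FPKM of at least 1 were. *Top2a*, which untangles DNA in mitosis, was at 1.996 and 0.951 FPKM (-0.62), and *Cdk1*, the kinase that starts mitosis, at 1.76 and 0.856 FPKM. *Pcna*, the clamp of DNA replication, was the exception at 51.2 and 59.1 FPKM (0.20). The other 9 lay between 0.704 and 3.37 FPKM, and of these the ratio intervals of all but *Top2a* and *Cdk1* include 1. Their part in the difference of *Ezh2* was not tested.

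In PRC1, *Cbx7*, the subunit that binds the PRC2 mark, was at 14.5 FPKM (13.6 to 15.5) before and 15.7 FPKM (14.6 to 16.8) at puberty. The ratio was 1.08 (0.979 to 1.19) and the log2 ratio 0.11, and the interval of the ratio includes 1. The sign was positive under each of the 10 alternative settings, which all reuse the same libraries and do not add to the counts. Its relative *Cbx6* differed far more, with 47.4 FPKM (45.6 to 49.2) before and 30.1 FPKM (28.6 to 31.8) at puberty, a log2 ratio of -0.64. *Cbx6* over *Cbx7* went from 3.27 (3.03 to 3.53) to 1.92 (1.76 to 2.11) within a library. *Cbx2* (1.06 and 1.13 FPKM) and *Cbx8* (10.4 and 9.75 FPKM) were near level. Of the other PRC1 subunits found, the RING, PCGF and PHC genes, 5 were lower and 5 higher with a median of -0.029 (positive also with equal medians), between *Pcgf6* (6.15 and 5.03 FPKM, -0.24) and *Pcgf1* (11.9 and 16.6 FPKM, 0.45). *Pcgf2* had no entry under that name.

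*Yy1*, a zinc finger factor that binds DNA and can bring Polycomb proteins to their targets, was at 18.7 FPKM (16.8 to 20.7) and 19.2 FPKM (17.1 to 21.4). The ratio was 1.03 (0.880 to 1.196) and the log2 ratio 0.035, and its sign turned in TPM and with ratios centred by length. With *Yy1*, 6 entries of recruiters and variant PRC1 were looked up, of which 4 were lower and 2 higher, with a median of -0.16. *Rybp*, which joins variant PRC1 and binds YY1, has 2 gene IDs, ENSRNOG00000005353 at 11.4 and 4.86 FPKM (log2 ratio -1.08, on 95 and 32 fragments) and ENSRNOG00000042307, a model of 252 nt, at 21.0 and 18.4 FPKM. Fragments can be shared between such copies, so both values are uncertain. The model of 252 nt is about as short as the length taken off when fragments were counted (256.5 and 251 nt). No fragment number or interval could therefore be given for it, though it is 1 of the 4 lower entries and enters the median. *Scmh1* (6.002 and 6.30 FPKM) stood at the upper end.

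Genes of enzymes that oppose Polycomb, and of proteins that work with them, went both ways. The trithorax group methylates lysine 4 of histone H3 at active genes, and of its 10 entries 8 were lower and 2 higher at puberty, where 51.1% of genes with FPKM of at least 1 were lower, with a median log2 ratio of -0.16, between *Men1* (18.4 and 15.1 FPKM, -0.27) and *Ash2l* (29.7 and 32.6 FPKM, 0.13). Several of these mRNAs are long. With ratios centred by length, 6 of the 9 entries with FPKM of at least 1 were lower and the median was -0.058, and with equal *Actb* 0 of the 10 were lower and the median was 0.16, where 10.2% of genes with FPKM of at least 1 were lower and their median was 0.36. *Setd1b* counts with 2 gene IDs and *Setd1a* had no entry. The genes of enzymes removing the PRC2 or PRC1 mark, with the cofactor gene *Asxl1*, were 3 lower and 1 higher. They ran from *Asxl1* (6.58 and 5.47 FPKM, -0.23) to *Kdm6a* (12.4 and 14.03 FPKM, 0.17), and with the top transcript of each gene all 4 were lower. *Kdm6b* was at 1.04 and 0.746 FPKM, an FPKM ratio of 0.716 (0.490 to 1.03). Of the 3 lower genes only *Asxl1* had a ratio interval (0.728 to 0.948) that excludes 1, as did that of *Kdm6a* (1.04 to 1.25).

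*Sirt1*, a deacetylase that depends on NAD and links energy state to chromatin, was at 11.7 FPKM (10.52 to 12.9) before puberty and at 13.2 FPKM (11.8 to 14.7) at puberty. The ratio of 1.13 (0.972 to 1.31) and the log2 ratio of 0.16 were the highest of the 10 genes, though the interval of the ratio includes 1 and *Cbx7* stood higher with ratios centred by length (0.16 against 0.14). A single transcript of 1803 nt carried the signal, with 375 and 332 fragments, and the other, ENSRNOT00000057829, was listed at 0 in both libraries. Of the 7 sirtuins, *Sirt1* included, 5 were higher and 2 lower, where 48.9% of genes with FPKM of at least 1 were higher. The median log2 ratio of the sirtuins was 0.10. It came to 0.065 with ratios centred by length and to 0.47 with equal *Actb*, where genes with FPKM of at least 1 had 0.36. The ratio intervals of *Sirt4*, *Sirt6* and *Sirt7* include 1, as does that of *Sirt1*. *Sirt5*, a mitochondrial enzyme, was at 92.4 and 109 FPKM (0.24), *Sirt3* at 77.7 and 84.3, *Sirt4* at 3.37 and 3.64, *Sirt6* at 14.2 and 13.9, and *Sirt7* at 7.22 and 7.83 FPKM. *Sirt2*, a cytoplasmic deacetylase rich in oligodendrocytes, was lower, at 132 and 98.2 FPKM (-0.43), so *Sirt1* over *Sirt2* went from 0.0883 (0.0792 to 0.0980) to 0.134 (0.1195 to 0.151). The histone deacetylases of classes I and II, which do not use NAD, were 8 lower and 2 higher, where 51.1% of genes with FPKM of at least 1 were lower, with a median of -0.18, between *Hdac7* (1.45 and 0.818 FPKM, -0.43) and *Hdac8* (15.95 and 18.6 FPKM, 0.21). With equal *Actb* 1 of the 10 was lower and the median was 0.19, where 10.2% of genes with FPKM of at least 1 were lower and their median was 0.36.

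**Figure D3:**
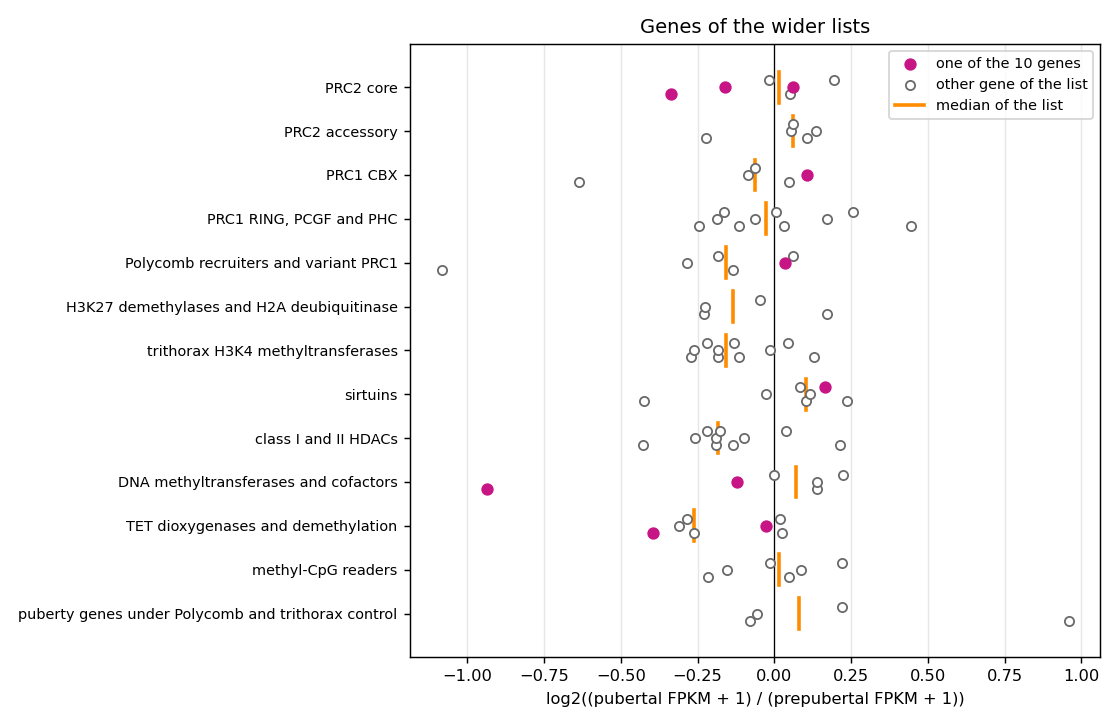
Log2 ratio (horizontal axis, pubertal over prepubertal, FPKM + 1) of each gene in 13 lists of silencing and related genes, with the 10 genes filled, the others open and the median of each list as an orange bar. *Dnmt3a* at -0.93, *Rybp* at -1.08 and *Cbx6* at -0.64 stand apart from their lists on the left, and *Kiss1* at 0.96 on the right.

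*Kiss1*, looked up with other genes of the pubertal program, was higher in the pubertal library, at 1.46 FPKM (0.668 to 2.77) before and 3.78 FPKM (2.20 to 6.06) at puberty. These values rest on 12 and 26 fragments over 3 transcripts. The intervals of the stages overlap, and the FPKM ratio was 2.59 (1.09 to 6.60). ENSRNOT00000077054, which made up 58.7% of the FPKM before puberty, was lower at puberty (0.857 and 0.737 FPKM), whereas ENSRNOT00000076506 (0.359 and 1.84 FPKM) and ENSRNOT00000035583 (0.244 and 1.204 FPKM) were higher. *Tac3*, which encodes neurokinin B, was at 20.7 and 24.3 FPKM (0.22), and *Irf2bpl* and *Nkx2-1*, activators of the pubertal program, at 7.96 and 7.62 and at 2.67 and 2.47 FPKM. Side by side with *Kiss1*, the log2 ratios of the Polycomb genes were 0.059 for *Eed*, 0.11 for *Cbx7*, -0.16 for *Suz12* and -0.34 for *Ezh2*. *Kiss1* neurons are a small part of this tissue, and levels within them were not measured.

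**Figure D4:**
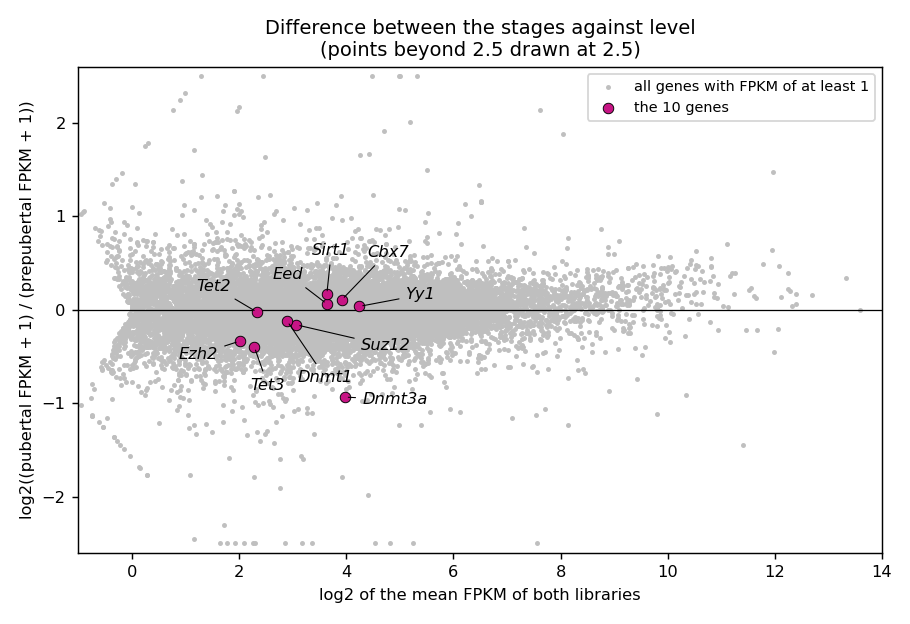
Log2 ratio (vertical axis) against log2 of the mean FPKM of both libraries (horizontal axis) for the 14029 genes with FPKM of at least 1 in a library (grey) and the 10 genes (purple). *Dnmt3a* lies at -0.93 near the lower edge of the cloud, and the other 9 lie between -0.40 and 0.16, inside it.

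The spread over all genes gives a scale for these values. Over the 14029 genes the quartiles of the log2 ratio were -0.17 and 0.14, and 5% of genes lay below -0.47 and 5% above 0.40. *Tet3* and *Ezh2* thus lay outside the quartiles and within the central 90% of genes, *Suz12*, *Dnmt1*, *Tet2*, *Yy1*, *Eed* and *Cbx7* lay between the quartiles, and *Sirt1* just above the upper one. *Dnmt3a* alone lay beyond the lowest 5%.

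**Figure D5:**
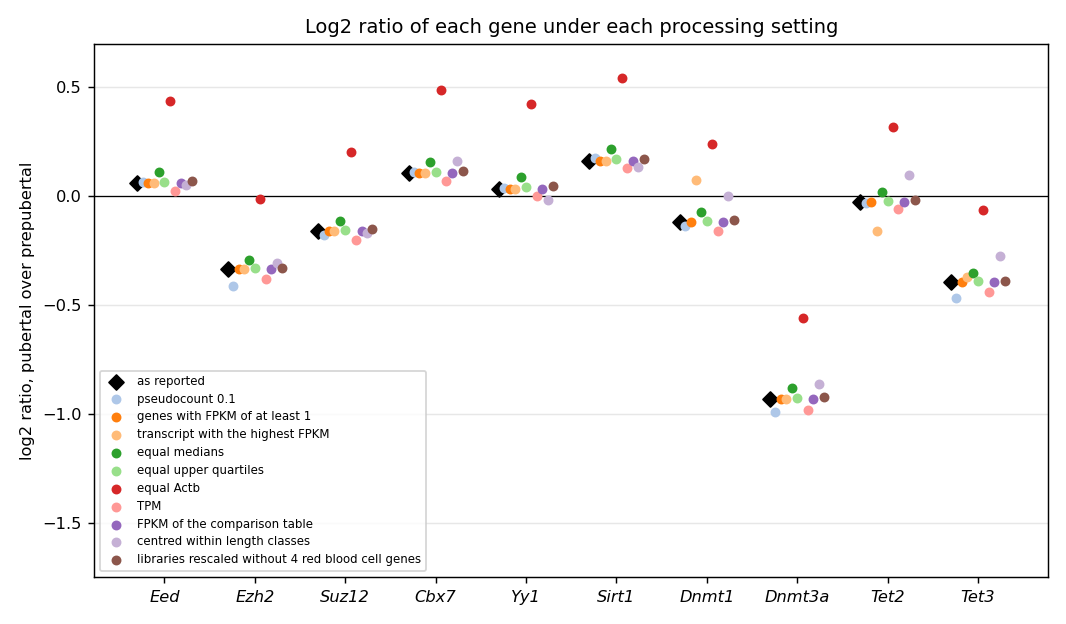
Log2 ratio (vertical axis) of each of the 10 genes under the settings reported (black diamonds) and 10 alternatives (coloured points). *Dnmt3a* stays between -0.99 and -0.56 and no setting turns its sign, while scaling to equal *Actb* moves every gene up, *Ezh2* to -0.013 and *Tet3* to -0.062.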

How the data were processed

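Strand-specific RNA-seq libraries depleted of ribosomal RNA were made from rat hypothalamus. How 3 rats became 1 column per stage is not given in the sources used here. The authors mapped with TopHat and assembled with Scripture and Cufflinks 2.1.1, and the deposited FPKM were estimated with Cuffdiff 2.1.1. Per the labels the build is Rnor_5.0, while the methods link an annotation of a later build, so no transcript coordinates are given. The deposited columns of log2 ratios, p-values and q-values hold the authors' own comparison and were not used. Transcript lengths came from the same table.

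FPKM of 26324 mRNA transcripts were summed per gene ID, with a pseudocount of 1 and no filter. No test was run, and lists are described by counts and medians beside those of all genes. Fragments were FPKM times (length minus 256.5 nt before puberty or 251 nt at puberty) over the value of 1 fragment, fitted on single-transcript genes of 1000 to 10000 nt and tested on simulated data. The members and lists were chosen with earlier results of these data known. Named were the 10 genes with each transcript, their closest relatives, *Kiss1*, and the lowest and highest log2 ratio of each list among genes with FPKM of at least 1. Not every relative is reported here. *Cdk1*, *Rbbp4*, *Rbbp7*, *Uhrf1*, *Kdm6b*, *Tac3* and *Irf2bpl* were added after their values were seen. Start regions came from RefSeq and were matched by symbol. Alternatives were a pseudocount of 0.1, a filter at FPKM of 1, the top transcript per gene, scaling to equal medians, upper quartiles or *Actb*, TPM, the FPKM of the comparison table, ratios centred in 10 length classes and, chosen after seeing the data, rescaling without 4 red blood cell genes. Work was done in Python 3.11.15 (pandas 2.3.3, numpy 2.4.6, scipy 1.17.1, matplotlib 3.10.9).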

Additional observations from a re-analysis of the deposited data

How the results depend on the processing

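With 1 library per stage, no setting adds information on the spread between rats. No paired analysis was possible because each stage has 1 library and no test was run. The number of the 10 genes lower at puberty was 6, and 5 to 7 under 9 of the 10 alternatives. The exception was making *Actb* equal, which multiplies the pubertal library by 1.32 and moved the median log2 ratio of all genes by 0.19. There 3 of the 10 were lower, 1 was at least 1.2-fold lower in place of 3 (*Dnmt3a*, at -0.56), and 5 at least 1.2-fold higher in place of 0 (10.2%, 2.82% and 64.8% of genes with FPKM of at least 1), with a median log2 ratio of 0.28 in place of -0.074. The median was -0.084 with a pseudocount of 0.1, -0.063 with the transcript of highest FPKM, -0.026 with equal medians, -0.068 with equal upper quartiles, -0.11 in TPM, -0.0064 with ratios centred by transcript length and -0.065 without the 4 red blood cell genes, a setting chosen after seeing the data. With the filter at FPKM of 1 and with the FPKM of the comparison table it did not move, as 13 transcripts differ between the tables and 0 of them belong to the 10 genes. *Dnmt3a*, *Tet3*, *Ezh2*, *Eed*, *Cbx7* and *Sirt1* kept their sign under all 10 alternatives. *Suz12*, *Dnmt1*, *Tet2* and *Yy1* turned under 1, 3, 3 and 2 of them. Depth limits *Tet3*, whose short transcript held 27 and 16 fragments, *Ezh2*, with 243 and 142, and *Kiss1*.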
